A study of Mus musculus with 209 samples.

Results

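The proteasome subunit genes are described here: every gene whose symbol starts with Psm, has a letter from a to g and then a number. The rule matched 50 of the 24450 gene rows in the mouse oocyte and 2-cell tables, and the same 50 symbols in both epiblast tables. The matches were 7 core alpha subunits (Psma1 to Psma7), 7 constitutive core beta subunits (Psmb1 to Psmb7) and 5 immune or tissue-specific core subunits (Psma8, Psmb8, Psmb9, Psmb10 and Psmb11). They also held 6 ATPases of the base (Psmc1 to Psmc6), 3 non-ATPase base subunits (Psmd1, Psmd2 and Psmd4) and 8 lid subunits (Psmd3, Psmd6, Psmd7, Psmd8, Psmd11, Psmd12, Psmd13 and Psmd14). The remaining matches were 5 alternative caps (Psme1, Psme2, Psme2b, Psme3 and Psme4), the inhibitor Psmf1, 7 assembly chaperones (Psmg1 to Psmg4, Psmd5, Psmd9 and Psmd10) and Psmc3ip. Psmc3ip, also known as Hop2, is not a proteasome subunit and acts in meiotic recombination, which leaves 49 members of the system.

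The proteasome is the barrel-shaped protease that degrades proteins marked with ubiquitin. Alpha rings gate the barrel, beta rings carry the cutting sites, and a cap made of a base and a lid binds ubiquitin, unfolds the substrate and feeds it in. Dedicated chaperones build the particle, alternative caps replace the base and lid, and immune cells swap in other beta subunits. Mouse oocytes store messenger RNA for the first divisions, and the 2-cell embryo is the stage at which much of that store is removed and transcription of the embryo's own genome becomes extensive.

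The series measured DNA methylation, hydroxymethylation and polyA RNA in mouse germ cells and early embryos. It holds 209 samples, of which 54 RNA samples had columns in the count tables used here and 155 were not analysed here. Single-cell RNA libraries came from MII oocytes, collected 14 to 15 hours after hCG, and from 2-cell embryos, collected 42 to 43 hours after hCG. They carried either the label WT (14 oocyte and 8 2-cell libraries) or the label N14 maternal KO (19 oocyte and 9 2-cell libraries).

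N14 was read as Nlrp14, a gene expressed in oocytes; the labels do not spell it out, nor do they say what drives the deletion. Per the labels' protocols the mothers were C57BL/6 females 6 to 8 weeks old, superovulated with PMSG and hCG, and the males were C57BL/6 or PWK. The strain of the father is not given for each 2-cell library, but the authors deposited counts split by maternal and paternal allele. Bulk polyA RNA came from epiblast, the tissue that forms the embryo proper, in 2 samples labelled IVC and 2 labelled E6.5 ND, all WT and C57BL/6 x C57BL/6. The labels do not explain IVC or ND. Nothing says that libraries or samples of a group came from separate animals, so every spread below may be technical.

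The count totals ranged from 3933604 to 13052327 in WT oocytes, 4585916 to 10637866 in KO oocytes, 3788348 to 10303580 in WT 2-cell libraries and 2704050 to 15007301 in KO 2-cell libraries. Oocyte libraries fell into technical sets: 10 WT and 7 KO libraries held ERCC spike-in RNA above 0.01% of counts, as every 2-cell library did, while 3 WT and 10 KO libraries had less of it and Rn45s ribosomal RNA under 1%. The remaining 1 WT and 2 KO libraries were in neither set. Stages were compared within the spike-in set. There ERCC took 0.0382 to 0.0586% of counts in WT and 0.0285 to 0.0389% in KO oocytes. In 2-cell libraries it took 0.0583 to 0.135% in WT and 0.0478 to 0.0957% in KO. The lowest WT 2-cell value was that of replicate 8, inside the KO range. Ratios below compare shares of counts, so changes per cell were not tested. Nlrp14 was at 105.6 to 476.9 CPM (a gene's counts divided by the library's total and scaled to a common size) in WT and 29.4 to 86.4 CPM in KO 2-cell libraries, and at 225 to 600 CPM and 29.5 to 63.6 CPM in spike-in oocytes, so every WT library was above every KO library. The summed oocyte markers were present in every oocyte library, and the summed 2-cell embryo markers reached 849 to 2147 CPM in WT and 220 to 3922 CPM in KO 2-cell libraries against at most 12.07 CPM in oocytes.

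A pair of 2-cell libraries stood apart from their groups. WT 2-cell replicate 8, the deepest WT library, had the lowest WT Nlrp14 value (105.6 CPM) and a paternal share of 4.00% of its allele counts over all genes, where the median of the WT group was 17.8% and that of the KO group 3.02%. KO 2-cell replicate 4, the deepest library of all, gave 0.363% of its counts to the members against a KO median of 0.245%. Results that rest on these libraries are given with and without them.

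The labels call each of these libraries a single cell and name no animal. A group was therefore handled as 1 sample, without a test between groups. Library counts were summed by group and expressed as pooled CPM, and a member was called higher or lower at a 2-fold difference when at least one pool reached 10 CPM. The 95% intervals of these ratios and the intervals of allele shares cover counting error only. Levels are given per library and compared within a gene, not between genes, because no transcript lengths were used.

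Promoters are shown for 4 members whose levels moved in opposite directions: Psma7 and Psmb3, lower in WT 2-cell libraries than in WT oocytes, and Psma6 and Psmd14, higher there. Each is the 250 bases before the RefSeq start on GRCm38.p6, a later build than the mm9 of the count files, read 5′ to 3′ along the gene. They lie at chr2:180042465-180042714 on the minus strand (Psma7), and on the plus strand at chr11:97703184-97703433 (Psmb3), chr12:55383972-55384221 (Psma6) and chr2:61711444-61711693 (Psmd14). Capitals mark CCAAT, the box read by NF-Y, and GGGCGG, the GC box, on either strand, so that ATTGG and CCGCCC are the same motifs read in reverse.

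Psma7: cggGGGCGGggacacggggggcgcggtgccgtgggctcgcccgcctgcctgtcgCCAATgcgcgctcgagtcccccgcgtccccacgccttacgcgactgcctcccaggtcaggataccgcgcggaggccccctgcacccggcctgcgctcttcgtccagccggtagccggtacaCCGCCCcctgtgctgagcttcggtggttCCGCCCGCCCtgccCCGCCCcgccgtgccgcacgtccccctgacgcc

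Psmb3: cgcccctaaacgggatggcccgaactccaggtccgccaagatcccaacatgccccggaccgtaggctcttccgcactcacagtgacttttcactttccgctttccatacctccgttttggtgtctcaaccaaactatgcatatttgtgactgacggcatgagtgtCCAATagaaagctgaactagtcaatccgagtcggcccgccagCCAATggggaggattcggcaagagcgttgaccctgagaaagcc

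Psma6: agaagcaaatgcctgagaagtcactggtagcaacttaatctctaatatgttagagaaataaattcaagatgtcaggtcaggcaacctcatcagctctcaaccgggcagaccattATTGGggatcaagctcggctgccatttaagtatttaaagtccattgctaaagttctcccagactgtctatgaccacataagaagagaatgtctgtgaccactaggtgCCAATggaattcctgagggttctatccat

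Psmd14: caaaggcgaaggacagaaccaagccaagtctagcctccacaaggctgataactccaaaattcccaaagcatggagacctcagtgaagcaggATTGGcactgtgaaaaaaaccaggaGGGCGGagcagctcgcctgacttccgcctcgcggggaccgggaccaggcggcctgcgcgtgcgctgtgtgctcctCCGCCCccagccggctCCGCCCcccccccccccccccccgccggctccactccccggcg

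All 4 windows held CCAAT: 1 match in Psma7 and in Psmd14, and 2 matches in Psmb3 and in Psma6. GGGCGG occurred 5 times in Psma7 and 3 times in Psmd14, and not in the other windows, so neither motif separated the pair that was lower from the pair that was higher. Of the 50 members, 42 had a promoter in the RefSeq table; Psma8, Psmb1, Psmb2, Psmb7, Psmc3, Psmd3, Psmd7 and Psmg2 were not matched. CCAAT was in 35.7% of the 42 and in 34.5% of all 27025 promoters of the same length. GGGCGG was in 52.4% of the members and 32.9% of all promoters. TGACNNNGC, the core of the antioxidant response element read by Nfe2l1 and Nfe2l2, was in 11.9% and 10.1%. Among members higher at the WT step from oocyte to 2-cell, 6 of 14 windows held CCAAT, against 5 of 10 among those lower.

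The first question was how the members' transcripts change, as shares of counts, from the WT oocyte to the WT 2-cell embryo. The core subunit Psma7 had the lowest ratio of the members tested and was far lower in every 2-cell library than in every oocyte. Within the spike-in set Psmd1 and Psmd4 of the base and the ATPase Psmc5 were also lower without overlap. The core subunits Psma5, Psmb4, Psmb5 and Psmb7, the lid enzyme Psmd14 and the caps Psme1 and Psme2 were higher in every 2-cell library there. With all WT oocytes Psma5, Psmc5, Psme1 and Psme2 overlapped. Members therefore went both ways at this step, within the same ring and within the same cap.

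Of the 50 members, 43 reached 10 CPM in either pool: 31 in both, 11 through the 2-cell pool alone and 1 through the oocyte pool alone. The 11 were Psma5, Psmb4, Psmb5, Psmb7, Psmc2, Psmc3, Psme1, Psme2, Psmg2, Psmg3 and Psmc3ip. At 2-fold, 20 were higher and 10 lower, where 42.1% of all tested genes were higher and 12.8% lower. The median log2 ratio was 0.77 for the members tested and 0.69 for all genes. Among the 31 members past the limit in both pools, 9 were higher and 9 lower, with a median of 0.14, beside 21.3% and 15.2% of all such genes. Scaling by the trimmed mean of M-values (TMM) moved all ratios down by 0.66 on the log2 scale and gave 16 higher and 15 lower members, beside 30.6% and 25.1% of all genes. Under that scaling Psmd8, Psmd11, Psmd12 and Psmf1, all under 2-fold, changed sign. Every 2-cell library lay above every spike-in oocyte in 12 members and below in 5, beside 23.7% and 8.29% of all genes. With all WT oocytes these counts were 7 and 3, given without a share of all genes.

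**Figure D1:**
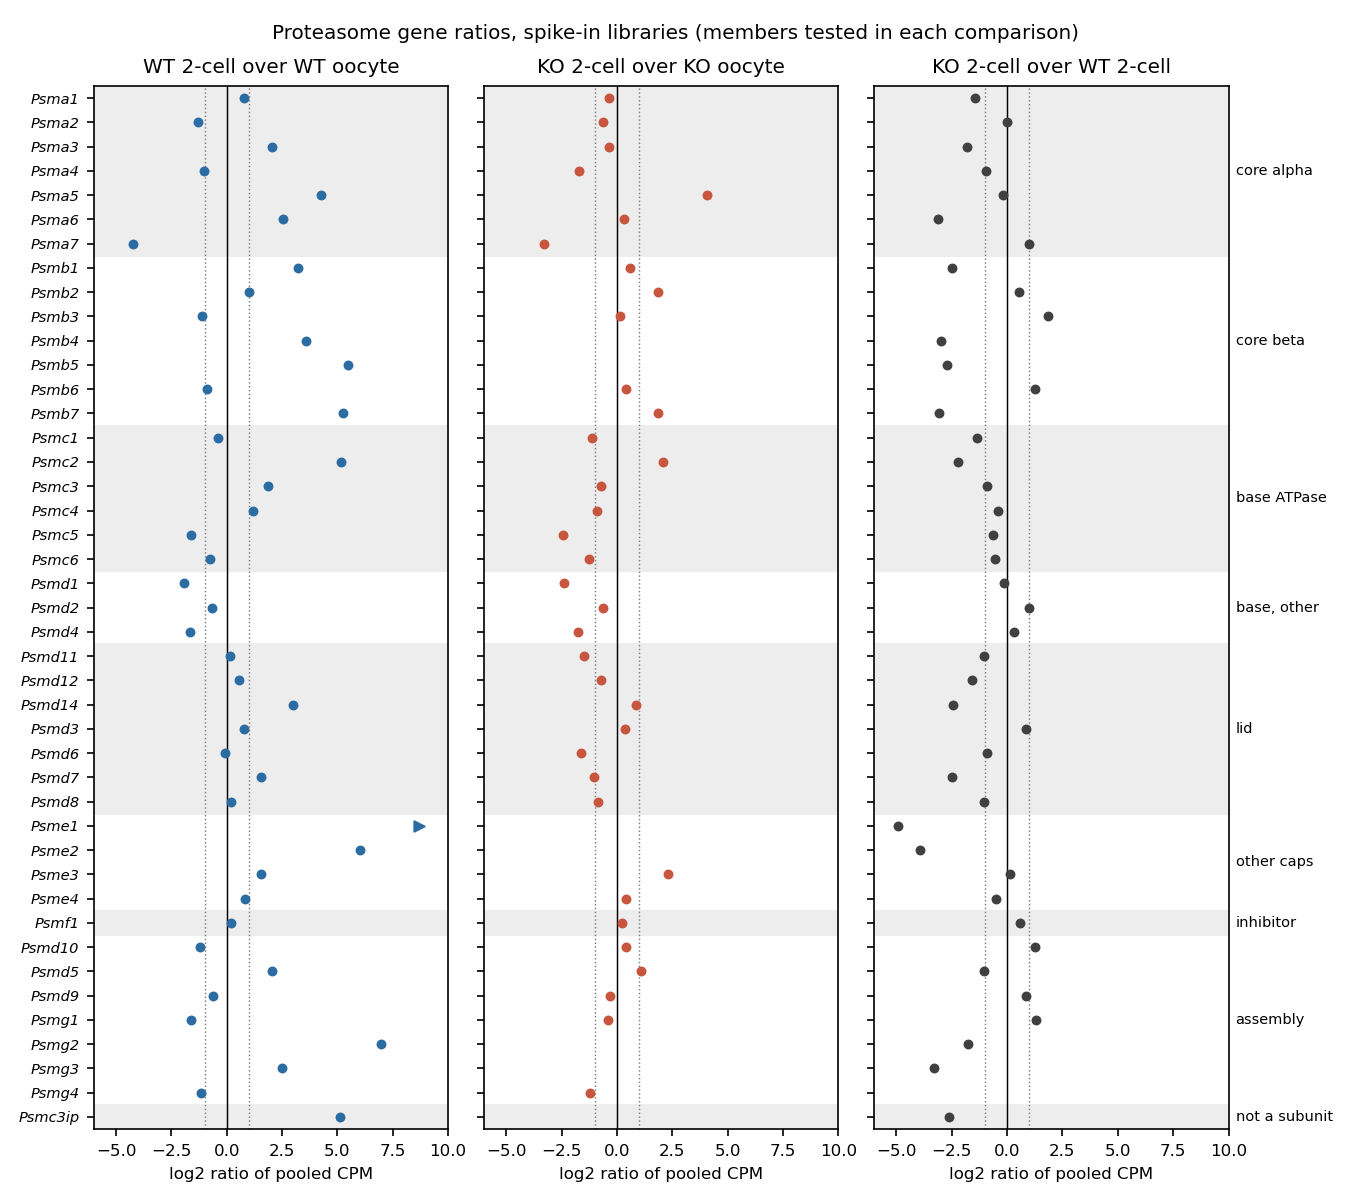
Log2 ratio of pooled CPM for each tested member in 3 comparisons: WT 2-cell over WT oocyte, KO 2-cell over KO oocyte and KO 2-cell over WT 2-cell. Points are members grouped by role, dotted lines mark 2-fold, and the triangle is Psme1, whose ratio is a lower bound because the 10 spike-in WT oocytes had no count. The left panel spreads from -4.23 (Psma7) to 8.70 (Psme1), and the right panel has 20 members at or under -1 and 6 at or over 1.

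In the alpha ring, Psma7 was at a lowest, median and highest of 812, 1005 and 1404 CPM in WT oocytes and at 35.3, 46.4 and 98.9 CPM in WT 2-cell libraries. The pooled levels were 1027 and 54.8 CPM, a log2 ratio of -4.23 (95% interval -4.29 to -4.17). The groups lay far apart, with the highest 2-cell library well under the lowest oocyte. Psma2 (-1.30) and Psma4 (-1.01) were lower as well, with overlapping libraries. Psma5 went the other way, from 0.19, 1.99 and 6.13 CPM in oocytes to 22.7, 47.4 and 82.6 CPM, a log2 ratio of 4.24 with no overlap in the spike-in set. Psma6 rose in the pools from 20.7 to 122 CPM (2.56) and Psma3 from 49.3 to 205 CPM (2.05), both with overlapping libraries. The single remaining alpha subunit, Psma1, stayed under 2-fold at 0.77.

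In the beta ring, 5 of 7 constitutive members were higher and 1 was lower. Psmb7, which carries the trypsin-like site, was at 0 to 4.63 CPM (median 2.74) in oocytes and at 9.12 to 177 CPM (median 127) in 2-cell libraries, a log2 ratio of 5.27. No 2-cell library fell within the oocyte range. Psmb5, which carries the chymotrypsin-like site, was at 0.28 and 12.4 CPM in the pools (5.48, from 18 and 530 counts). Psmb4 (3.58) was also above every oocyte, Psmb1 (3.24) and Psmb2 (1.02) overlapped. Psmb3 was lower, at 50.7, 87.9 and 105 CPM in oocytes and 24.9, 32.4 and 61.1 CPM in 2-cell libraries (-1.12, overlapping). Psmb6, the caspase-like subunit, was at 140 and 74.3 CPM in the pools, under 2-fold at -0.91. Of the 3 cutting subunits, Psmb5 and Psmb7 were thus called higher and Psmb6 was not called. Psmb4, Psmb5 and Psmb7 passed the 10 CPM limit through the 2-cell pool alone. Among the 4 constitutive beta members past it in both pools, 2 were higher and 1 lower, with a median of 0.05.

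In the base, Psmd1, a scaffold and docking subunit, was at 225, 281 and 387 CPM in oocytes and 48.0, 84.4 and 124 CPM in 2-cell libraries (-1.92). Psmd4, a ubiquitin receptor, was at 234, 322 and 344 CPM and at 70.0, 107 and 121 CPM (-1.67). Both were below every oocyte in every 2-cell library. Within the spike-in set so was the ATPase Psmc5 (97.2 and 32.2 CPM in the pools, -1.59). With all WT oocytes Psmc5 overlapped, and WT oocyte replicate 14 was at 22.69 CPM. The other ATPases included 3 that were higher: Psmc2 (1.76 and 62.3 CPM, 5.15), Psmc3 (9.84 and 35.6 CPM, 1.85) and Psmc4 (14.0 and 32.1 CPM, 1.19). Psmc1 and Psmc6 stayed under 2-fold at -0.40 and -0.77, so the ATPases, which form 1 ring in the protein, spanned both directions. Psmc2 and Psmc3 passed the 10 CPM limit through the 2-cell pool alone. Among the 4 ATPases past it in both pools, 1 was higher and 1 lower, with a median of -0.58. Psmc3 lost its call with all WT oocytes, and Psmc4 lost its call under TMM scaling.

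In the lid, 2 of the 7 tested members were higher and none was lower. Psmd14, the enzyme that cuts ubiquitin chains off the substrate, was at 10.3, 14.6 and 20.1 CPM in oocytes and at 25.9, 167 and 225 CPM in 2-cell libraries. The pools were at 15.1 and 120 CPM, a log2 ratio of 3.00 (2.90 to 3.10), and the groups did not overlap. Psmd7, the partner of Psmd14 in the lid, was at 46.6 and 136 CPM in the pools (1.55), with overlap because of WT 2-cell replicate 8. Psmd3, Psmd6, Psmd8, Psmd11 and Psmd12 were between -0.07 and 0.77.

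Among the caps, Psme1 and Psme2, which form the cap linked to antigen processing, were nearly absent from WT oocytes. Psme1 had 0 counts in the 10 spike-in oocytes and 826 in the 8 2-cell libraries, at 0.87, 31.2 and 37.7 CPM. Set against a floor of 3 counts over the oocyte group, it was at least 417-fold higher. WT oocyte replicate 14, outside the spike-in set, had 20 counts (2.12 CPM), above WT 2-cell replicate 8, and with all WT oocytes the log2 ratio was 6.71. Psme2 had 29 and 1260 counts, 0.45 and 29.4 CPM in the pools (6.04), and again no overlap within the spike-in set. Psme3, the nuclear cap, was higher at 58.8 and 173 CPM (1.56). Psme4, the large single-chain cap, was above every oocyte but under 2-fold: 184 to 281 CPM in oocytes, 317 to 523 CPM in 2-cell libraries, log2 ratio 0.85.

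The assembly chaperones divided as well, with 3 higher and 3 lower of 7. Psmg2 had 11 counts in oocytes and 915 in 2-cell libraries (0.17 and 21.4 CPM, 6.98), and 7.93 without WT oocyte replicate 7. Its partner in the same heterodimer, Psmg1, was lower at 71.8 and 23.5 CPM (-1.61, overlapping). Psmg3 was higher at 2.48, or 3.17 without WT oocyte replicate 8, while its own partner Psmg4 was lower at -1.18. In the pools both chaperone pairs thus had 1 partner on each side. Psmg2 and Psmg3 passed the 10 CPM limit through the 2-cell pool alone, and Psmg4 through the oocyte pool alone. In low-rRNA WT oocytes Psmg4 was at 0 to 2.6 CPM, and with all WT oocytes it lost the call. Psmd5, a base chaperone, was higher at 37.6 to 75.4 CPM in spike-in oocytes and 142 to 458 CPM in 2-cell libraries (2.03, no overlap), and Psmd10 was lower (-1.21). With all WT oocytes Psmd5 overlapped, since WT oocyte replicate 14 was at 167.4 CPM. Psmc3ip, the member that is not a subunit, was higher at 1.49 and 52.5 CPM (5.13).

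**Figure D2:**
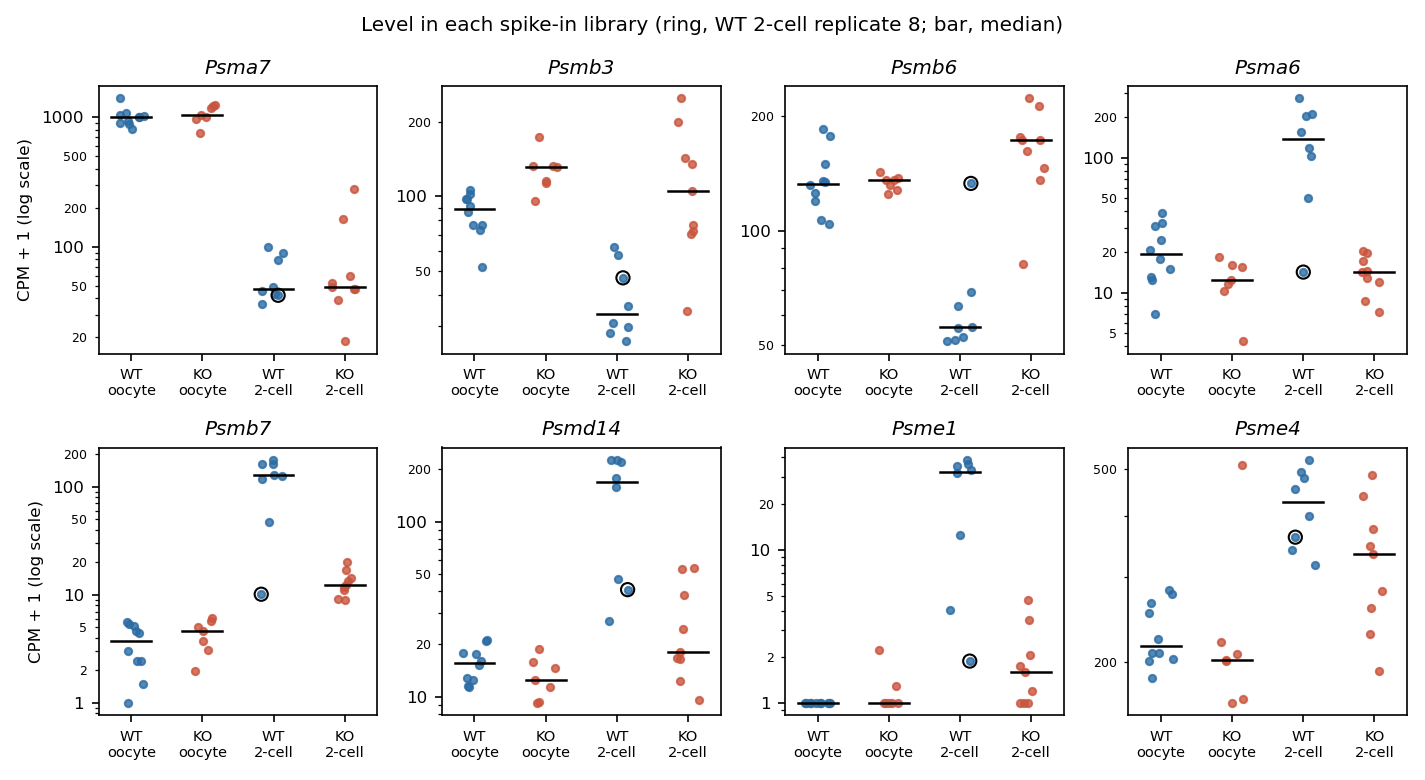
CPM plus 1 on a log axis in each spike-in library for Psma7, Psmb3, Psmb6, Psma6, Psmb7, Psmd14, Psme1 and Psme4, in WT oocytes, KO oocytes, WT 2-cell and KO 2-cell libraries. Points are libraries, bars are group medians and the ring marks WT 2-cell replicate 8, which for Psma6 and Psmb7 sits with the KO 2-cell libraries. Psma7 falls from a median of 1005 to 46.4 CPM between WT oocytes and WT 2-cell libraries.

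The same step was then read in the maternal KO, which had fewer calls in the higher direction. Of 36 members tested, 6 were higher and 11 lower, beside 19.5% and 16.3% of all genes. Of the 36, 32 reached the limit in both pools, 3 through the 2-cell pool alone and 1 through the oocyte pool alone. The median was -0.39 for the members and 0.15 for all genes. Every KO 2-cell library was above every spike-in KO oocyte in 4 members and below in 11, beside 10.9% and 12.4% of all genes. With all KO oocytes these counts were 1 and 4, given without a share of all genes. TMM scaling gave 5 higher and 13 lower (16.4% and 19.9% of all genes), and turned Psmb3 from 0.15 to -0.03.

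The members that moved 2-fold in the same direction in both genotypes were 6 higher (Psma5, Psmb2, Psmb7, Psmc2, Psmd5 and Psme3) and 6 lower (Psma4, Psma7, Psmc5, Psmd1, Psmd4 and Psmg4). In both genotypes Psma5, Psmb7 and Psmc2 passed the 10 CPM limit through the 2-cell pool alone, and Psmg4 through the oocyte pool alone. Under TMM scaling Psmb2 and Psme3 lost the WT call and Psmd5 the KO call. Genes at large that moved alike in both genotypes were not counted. Psma7 was at 750, 1048 and 1254 CPM in KO oocytes and 17.6, 47.9 and 276 CPM in KO 2-cell libraries. Its log2 ratio was -3.31, or -4.25 without KO 2-cell replicate 4, which held the highest value. Psma5 was at 0, 2.56 and 5.97 CPM and then at 18.6, 35.9 and 76.0 CPM (4.06), close to its WT values and with no overlap. That holds for spike-in oocytes alone: low-rRNA KO oocytes were at 26.2 to 84.8 CPM, inside or above the KO 2-cell range, and with all oocyte libraries Psma5 lost the call at both steps (0.96 in WT and 0.21 in KO). Psmc2 and Psmd5 then also lost the call in KO (-0.02 and 0.22), as did Psmg4 among the members lower in both genotypes, while Psma4 and Psmg4 lost it in WT. Psmc5 fell by 2.43 and Psmd1 by 2.41 on the log2 scale, each with all 9 2-cell libraries below all 7 oocytes, and Psmd4 fell by 1.77 in the same way. Psma4 went from 80.0, 87.3 and 96.4 CPM to 15.6, 24.9 and 41.7 CPM (-1.71), and Psmg4 was at -1.22.

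The members higher in both genotypes differed in size between them. Psmb7 was at 0.98, 3.63 and 5.08 CPM in KO oocytes and 7.96, 11.2 and 19.2 CPM in KO 2-cell libraries, a log2 ratio of 1.84 where the WT value was 5.27. Psmc2 was at 2.07 (WT 5.15) and Psmd5 at 1.11 (WT 2.03). Psmb2 was at 1.84 (WT 1.02) and Psme3 at 2.31 (WT 1.56), so these 2 went the other way, with a larger ratio in the KO. No test of a difference between the genotypes' steps was possible with 1 sample a group.

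A further group moved in WT and not in KO, or could not be compared in KO. Psma3, Psma6, Psmb1, Psmc3, Psmc4 and Psmd14 were higher in WT and under 2-fold in KO, and Psmd7 was higher in WT (1.55) and lower in KO (-1.04). The KO call of Psmd7 was lost without KO 2-cell replicate 5 or 7, or without KO oocyte replicate 14 or 16. Its WT call was lost under TMM scaling. Psma6 was at 3.35, 11.3 and 17.4 CPM in KO oocytes and 6.24, 13.3 and 19.5 CPM in KO 2-cell libraries (0.31). Psmd14 was at 8.24, 11.53 and 17.8 CPM and then at 8.54, 17.1 and 53.3 CPM (0.86). Both pairs of ranges overlapped in part: 2 of 9 KO 2-cell libraries for Psma6 and 4 of 9 for Psmd14 lay above the highest oocyte. Psmb4, Psmb5, Psme1, Psme2, Psmg2, Psmg3 and Psmc3ip were higher in WT and reached 10 CPM in neither KO pool. Psma2, Psmb3, Psmd10 and Psmg1 were lower in WT and under 2-fold in KO, while Psmc1, Psmc6, Psmd6 and Psmd11 were lower in KO and under 2-fold in WT.

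The direct comparison of KO with WT 2-cell libraries asked which members differ between embryos of the 2 genotypes at 1 stage. Core subunits Psma6, Psmb1, Psmb4, Psmb5 and Psmb7, the lid subunits Psmd7 and Psmd14, the caps Psme1 and Psme2 and the chaperone Psmg3 were lower in KO, with log2 ratios from -4.91 to -2.47. A smaller set, led by the beta subunits Psmb3 and Psmb6 and the chaperone Psmg1, was higher in KO. The members as a whole took 0.257, 0.378 and 0.531% of counts in WT (lowest, median and highest library) and 0.221, 0.245 and 0.363% in KO. These ranges overlapped, with WT replicate 8 lowest in WT and KO replicate 4 highest in KO.

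Of 42 members tested, 35 reached the limit in both pools and 7 through the WT pool alone. The 7 were Psmb4, Psmb5, Psme1, Psme2, Psmg2, Psmg3 and Psmc3ip, all called lower. At 2-fold 20 were lower and 6 higher, beside 31.6% and 5.96% of all genes, and 16 were under 2-fold. The median was -0.94 for the members and -0.35 for all genes. Among the 35 in both pools 13 were lower and 6 higher, with a median of -0.56, beside 18.1% and 5.74% of all such genes. TMM scaling moved all ratios up by 0.36 and gave 17 lower and 8 higher (24.6% and 13.3% of all genes), with Psma5 and Psmd1, both under 2-fold, changing sign. No member had all KO libraries on one side of all WT libraries, beside 0.333% of all genes above and 1.37% below.

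WT replicate 8 decided that overlap. It was the lowest WT library in 18 of the 20 members called lower. Leaving it out was chosen after these values were seen, so less overlap was built into that choice. Without it 14 members were lower in every KO library than in every WT library (13.4% of all genes) and 2 were higher in every one (3.53%). The 14 were Psma1, Psma3, Psma6, Psmb1, Psmb4, Psmb7, Psmb10, Psmc1, Psmc2, Psmd7, Psmd8, Psmd11, Psmd12 and Psmg3. Of these, Psmb4 and Psmg3 passed the 10 CPM limit through the WT pool alone. Psmb10 was not tested with all libraries, and here it too passed through the WT pool alone. Counts of calls without WT replicate 8 were 24 lower and 7 higher of 43 tested, where 36.9% and 11.3% of all genes were called. KO replicate 4 bore on the calls in the other direction: it was the highest KO library in 5 of the 6 members called higher, and without it only Psmb3 and Psmb6 were called higher, while 22 were lower (4.72% and 30.9% of all genes). Without both libraries 26 were lower and 6 higher, beside 36.2% and 10.6% of all genes, with a median of -1.27 against -0.44 for all genes.

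Of the 7 alpha subunits 3 were lower and 1 higher in KO. Psma6 was at 13.2, 137 and 276 CPM in WT and 6.24, 13.3 and 19.5 CPM in KO, with pools at 122 and 14.1 CPM and a log2 ratio of -3.11 (-3.21 to -3.00). Only WT replicate 8, at 13.2 CPM, fell inside the KO range; the next WT library was at 49.2 CPM. Psma3 was lower at -1.82 and Psma1 at -1.44. Psma7 was called higher in the pools at 110 against 54.8 CPM (1.00), but KO replicates 4 and 9 held the high values, at 276 and 164 CPM, and without replicate 4 the ratio was 0.06. Psma2 (0.004), Psma5 (-0.19) and Psma4 (-0.95) stayed under 2-fold.

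Of the 7 constitutive beta subunits 4 were lower and 2 higher, and the ratios ran from -3.07 to 1.86. Psmb4 and Psmb5 passed the 10 CPM limit through the WT pool alone. Among the 5 past it in both pools, 2 were lower and 2 higher, with a median of 0.52. Psmb7 was at 9.12, 127 and 177 CPM in WT and 7.96, 11.2 and 19.2 CPM in KO (-3.07). Again WT replicate 8 was the lone WT library in the KO range, since the next was at 45.8 CPM. Psmb4 (64.9 and 8.29 CPM, -2.97), Psmb5 (12.4 and 1.89 CPM, -2.71) and Psmb1 (102 and 17.9 CPM, -2.50) were lower too. Psmb3 was at 24.9, 32.4 and 61.1 CPM in WT and 33.3, 104 and 248 CPM in KO (1.86, 1.79 to 1.94), and Psmb6 at 50.2, 54.7 and 132 CPM and 80.6, 171 and 222 CPM (1.26). Their ranges overlapped, and both remained called without KO replicate 4. Psmb3 was at 95.03 to 172 CPM and Psmb6 at 124 to 141 CPM in KO oocytes, so the KO 2-cell pools (145 and 178 CPM) lay near the KO oocyte pools (131 and 133 CPM).

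In the cap of base and lid, 2 of 6 ATPases (Psmc2, -2.22, and Psmc1, -1.37) and 5 of 7 lid subunits were lower. Psmd14 was at 25.9, 167 and 225 CPM in WT and 8.54, 17.1 and 53.3 CPM in KO (-2.47), and 3 WT libraries lay inside the KO range. Psmd7 was at 136 and 24.6 CPM in the pools (-2.47), and Psmd12 (-1.59), Psmd8 (-1.06) and Psmd11 (-1.04) were nearer the limit. Psmd8, Psmd11 and the chaperone Psmd5 lost the call under TMM scaling. None of the 3 non-ATPase base subunits was lower, and Psmd2, the second large scaffold of the base, was higher at 1.01, a call lost without KO replicate 4 and when libraries were weighted equally. Psmd3 was the lone lid subunit tested with a ratio above 0, at 0.84, under 2-fold.

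Among the caps, Psme1 had 826 counts in WT and 40 in KO, at 0.87, 31.2 and 37.7 CPM and 0, 0.59 and 3.70 CPM (-4.91, -5.41 to -4.45). Psme2 was at 29.4 and 1.91 CPM in the pools (-3.95). Their homologue Psme3 (0.14) and Psme4 (-0.48) were under 2-fold, as was the inhibitor Psmf1 (0.58). The chaperones Psmg3 (10.8 and 1.09 CPM, -3.30), Psmg2 (21.4 and 6.32 CPM, -1.76) and Psmd5 (249 and 119 CPM, -1.06) were lower, and Psmg1 (23.5 and 58.7 CPM, 1.32) and Psmd10 (15.4 and 36.9 CPM, 1.26) were higher. Psmg1 and Psmd10 lost that call without KO replicate 4. Psmc3ip was lower at -2.64.

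Of the members higher at the WT step, 15 were lower in KO 2-cell libraries, and of those lower at the WT step, Psma7, Psmb3, Psmd10 and Psmg1 were higher there. The 2 comparisons share the WT 2-cell libraries, which favours opposite calls in any set of genes, so these counts are given side by side and not as an overlap. The same pairs of calls were not counted over all genes, so nothing particular to the members is read from them. The summed oocyte markers were at 3522 to 11260 CPM in WT and 5958 to 28770 CPM in KO 2-cell libraries. The part of these markers, of the 2-cell embryo markers and of the paternal share over all genes in the members' ratios was not tested.

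The allele tables show from which parent's copy the 2-cell transcripts came, and here the members had a large paternal share in WT. Of 50 members 41 had at least 50 allele counts in each genotype. Their median paternal share was 34.0% in WT and 12.47% in KO (7.58% without KO 2-cell replicate 7, and 8.89% as the mean of library shares), beside 17.7% and 3.37% over 9419 genes that met the same limit. A share of 25% or more was reached by 25 members in WT (40.8% of genes) and 9 in KO (16.4%). Oocyte markers, which should come from the maternal store alone, summed to a paternal share of 0.289% in WT and 0.0733% in KO. Single markers reached 16.7% in WT and 5.53% in KO. Whether misassigned reads or transcription in the embryo gave these paternal counts was not tested. The authors assigned 37.0% of WT and 39.5% of KO 2-cell counts to an allele.

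**Figure D3:**
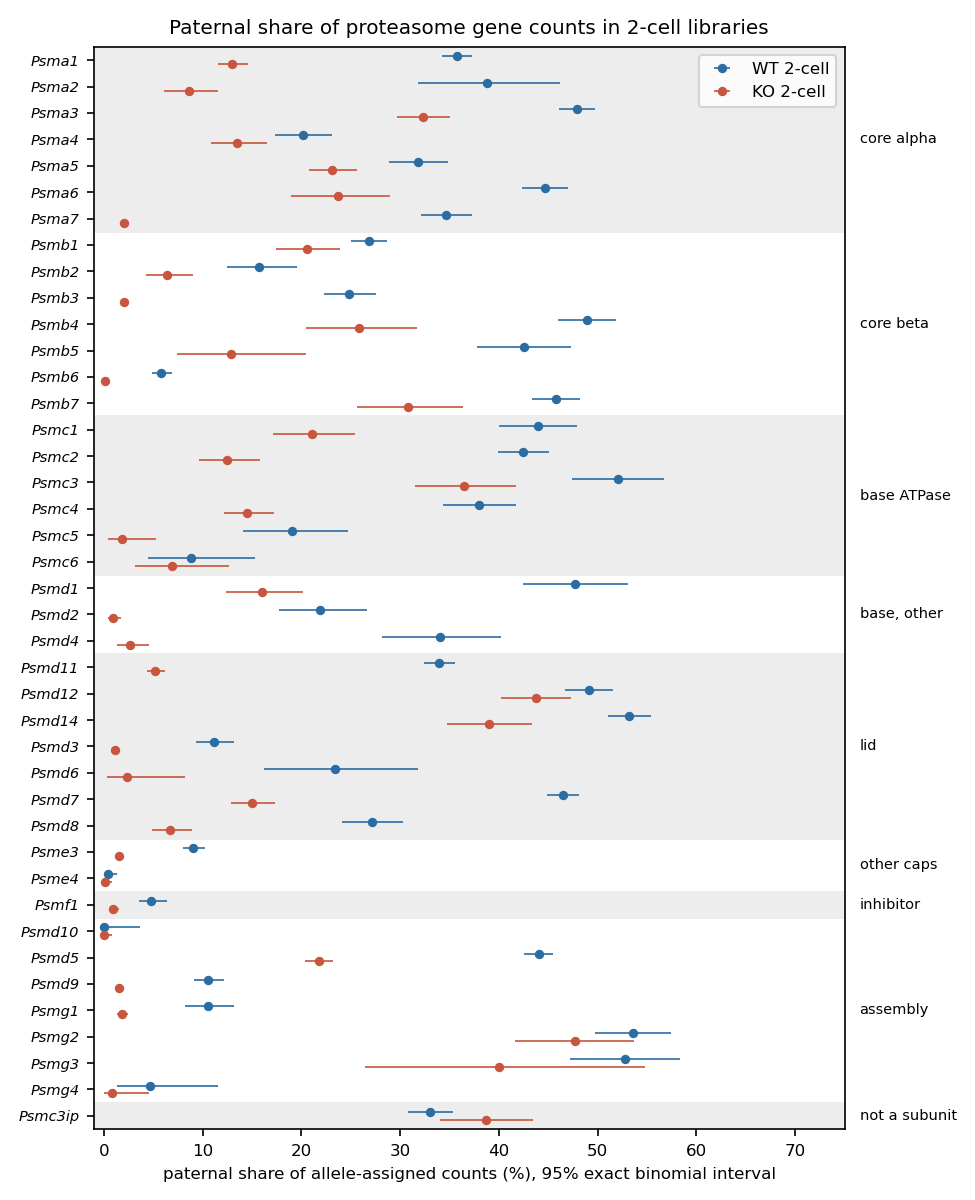
Paternal share of allele counts, in percent, on the x axis, for the 41 members with at least 50 allele counts in both genotypes, grouped by role on the y axis. Blue points are the WT and red points the KO 2-cell pool, with 95% exact binomial intervals that cover counting error only; WT lies to the right of KO in 39 members, Psmc3ip is the other way round and Psmd10 is at 0 in both.

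The WT share was above the KO share in 39 of 41 members (82.5% of genes), and the WT interval lay wholly above the KO interval in 33 (64.5% of genes). They overlapped in Psmc3ip, Psmc6, Psmd10, Psmd12, Psme4, Psmg2, Psmg3 and Psmg4. Over single libraries the summed share of the members was 10.5 to 43.0% in WT (median 38.7%) and 3.59 to 19.8% in KO (median 9.75%). The lowest WT value belonged to replicate 8, and the other WT libraries were at 27.2% or more, above every KO library.

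Counts from the paternal copy were at least 2-fold lower in KO in 38 of the 41 members (75.8% of genes) and higher in none (4.64%). Counts from the maternal copy were lower in 14 (19.6%) and higher in 9 (9.94%). The median log2 ratios were -2.35 for paternal and -0.50 for maternal counts in the members, beside -2.18 and -0.03 in all genes. The paternal drop therefore had about the size seen in genes at large.

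Among members lower in KO 2-cell libraries, the 5 that follow had shares near 50% in WT and were at least 2-fold lower on both copies. Psma6 had 783 paternal of 1754 allele counts in WT, or 44.6% (exact Clopper-Pearson interval 42.3 to 47.0), and 70 of 295 in KO, or 23.7% (18.99 to 29.0). Its KO over WT log2 ratio was -4.02 for paternal and -2.65 for maternal counts. Psmd14 was at 53.2% (51.0 to 55.4) in WT and 39.0% (34.7 to 43.4) in KO, with -2.99 and -2.16. Psmd7 was at 46.5 and 15.0%, Psmb4 at 48.9 and 25.8%, and Psmb7 at 45.8 and 30.8%. Shares near 50% mean about equal counts from both copies, and the library medians for Psmd14 were 51.2% in WT and 31.8% in KO. Not every such member was lower on both copies: the maternal ratio was under 2-fold for Psmc1 (-0.73), Psmd8 (-0.64), Psmd11 (-0.60) and Psmd5 (-0.49). Psme1 and Psme2 had no allele counts.

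Members called higher in KO 2-cell libraries were, in the 4 examples that follow, higher on the maternal copy and lower on the paternal one. Psmb3 was at 24.8% (22.2 to 27.6) in WT and 2.01% (1.65 to 2.43) in KO, with a maternal ratio of 2.17 and a paternal ratio of -1.84. Psma7 was at 34.6% (32.1 to 37.2) and 2.01% (1.60 to 2.50), with 1.59 and -3.10. Psmb6 was at 5.79 and 0.138%, with 1.29 and -4.18, and Psmd2 at 21.9 and 0.952%, with 1.52 and -3.35. The maternal counts of Psma7 include those of KO replicate 4.

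By role, the median shares in WT and KO were 35.7 and 13.51% for alpha subunits, 26.8 and 12.9% for constitutive beta subunits, 40.2 and 13.51% for ATPases, and 34.0 and 2.67% for the other base subunits. They were 34.0 and 6.69% for the lid, 10.6 and 1.82% for assembly chaperones, and 4.77 and 0.819% for the 2 caps that passed, Psme3 and Psme4. Members higher at the WT step had medians of 44.3 and 23.4% (18 passed), and those lower had 22.5 and 2.01% (10 passed). Psme4, at 3 of 661 counts in WT, had a share of 0.454%, near the summed share of the oocyte markers. Psmd10, which is X-linked, had 0 of 100 paternal counts in WT, which allows up to 3.0%, and 0 of 441 in KO, up to 0.68%. Psmg2 had 53.6 and 47.7% and Psmc3ip 33.1 and 38.7%, so their shares were alike in both genotypes while their totals were lower in KO.

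Oocytes of the 2 genotypes were compared to see whether the members already differ before fertilisation. In the spike-in set 3 of 33 members tested were higher in KO and none was lower, beside 9.41% and 3.69% of all genes, and 1 of the 33 passed through the KO pool alone. The median was 0.09 for members and 0.07 for all genes. The 3 were the ATPases Psmc4 and Psmc3 and the lid subunit Psmd3. Psmc4 was at 6.88, 13.4 and 20.6 CPM in WT and 25.7, 46.8 and 53.5 CPM in KO, with pools at 14.0 and 45.1 CPM (1.68, 1.58 to 1.80). Psmc3 was at 3.85, 9.30 and 14.4 CPM and 19.6, 25.0 and 44.9 CPM, with pools at 9.84 and 30.6 CPM (95% interval 1.504 to 1.77). Psmd3 was at 20.0, 43.6 and 55.9 CPM and 72.5, 94.2 and 122 CPM (1.25). In all 3, and in Psmd11 under 2-fold (0.61), every KO library lay above every WT library, beside 7.07% of genes.

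The low-rRNA set did not repeat these calls. There 1 of 34 members was higher, Psmb1 at 9.01 and 19.7 CPM (1.13, and 2.07 without WT oocyte replicate 2), and none was lower, beside 1.98% and 2.03% of all genes. Of the 34, 2 passed through the KO pool alone, and the libraries of Psmb1 overlapped. With all oocyte libraries pooled, 0 of 34 members were called in either direction, beside 2.04% of genes higher and 2.39% lower.

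The technical sets differed more from each other within WT than the genotypes did. Of 35 members tested, 7 were higher and 5 lower in spike-in than in low-rRNA WT oocytes, beside 24.1% and 19.1% of all genes. Psma5 was at 0.19, 1.99 and 6.13 CPM in the spike-in set and at 37.2, 55.8 and 55.9 CPM in the low-rRNA set (-4.24). Psmc2 was at 1.76 and 20.1 CPM in the pools (-3.52). Both of these were called higher at the WT step within the spike-in set, and the low-rRNA oocyte levels of Psma5 lay inside its WT 2-cell range of 22.7 to 82.6 CPM. Psmg4 (3.35, or 5.92 without WT oocyte replicate 2) and Psma6 (1.71, or 2.84 without WT oocyte replicate 3) were higher in the spike-in set.

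Genes of the pathway outside the Psm name were read from a list of 46 partners, ubiquitin shuttles, ubiquitin and activating genes, transcription factors of proteasome genes and antigen-processing genes. At the WT step 14 of 37 tested were higher and 1 lower, in the KO step 5 higher and 6 lower of 38, and between 2-cell genotypes 1 higher and 7 lower of 37. The shares of all genes were 42.1% and 12.8%, 19.5% and 16.3%, and 5.96% and 31.6%, so 14 of 37 and 7 of 37 did not exceed them. Rps27a, which encodes ubiquitin fused to a ribosomal protein, was higher at the WT step (7.13) and lower in KO 2-cell libraries (-2.24). Sem1, a small lid subunit without the Psm name, was at 30.7 and 76.0 CPM at the WT step (1.31) and at -1.97 between 2-cell genotypes. Vcp, the unfoldase that extracts ubiquitinated proteins, was at 1.40 and -2.03. Nfyb, a subunit of the factor that reads CCAAT, was at 83.6 CPM in the WT and 9.64 CPM in the KO 2-cell pool (-3.12). Ube2d1, a ubiquitin-conjugating enzyme, went the other way, at -1.78 at the WT step and 2.16 between genotypes.

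The last comparison, in bulk epiblast, set the IVC samples against the E6.5 ND samples and allowed a test. The core was higher in IVC throughout the alpha ring and in 6 of 7 constitutive beta subunits, by up to 43.2-fold for Psmb2. The calls of Psma4 and Psmb4 were lost with the replicate number as a block. The caps Psme2 and Psme2b, the immune subunits Psmb8, Psmb9 and Psmb10 and the ubiquitin-chain enzyme Psmd14 were higher as well. Only Psmd2, Psme3 and Psme4 were lower. The members took 1.96 and 2.22% of counts in the IVC samples and 0.484 and 0.502% in the E6.5 samples.

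In edgeR's quasi-likelihood test with Benjamini-Hochberg adjustment, 48 of 50 members could be tested, and 30 were higher and 3 lower at an adjusted p under 0.05. Of all 11565 genes tested 12% were higher and 23.5% lower, so the balance among the members was the opposite of that among all genes. The median log2 fold was 2.38 for the members and -0.85 for all genes. Both IVC samples were above both E6.5 samples in 41 members (21.8% of genes) and below in 5 (53.7%). Leaving out either E6.5 sample left 18 higher and 0 lower, and leaving out the second IVC sample gave 38 higher and 5 lower. Psmd2, Psme3 and Psme4 were the lower calls lost without either E6.5 sample. The higher calls lost included the core subunits Psma4, Psmb4, Psmb7, Psmb8 and Psmb9 and the cap Psme2b. Those of Psmb10, Psme2 and Psmd14 were not lost. With the replicate number as a block the higher calls of Psma4, Psmb4, Psmb8, Psmb9, Psmd12, Psme2b and Psmg2 were lost. The lower calls of Psmd2 and Psme3 were lost there too. In DESeq2 Psmb4, Psmc3 and Psmd2 were lost. In bulk samples fewer cells of a type and less RNA per cell cannot be told apart.

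**Figure D4:**
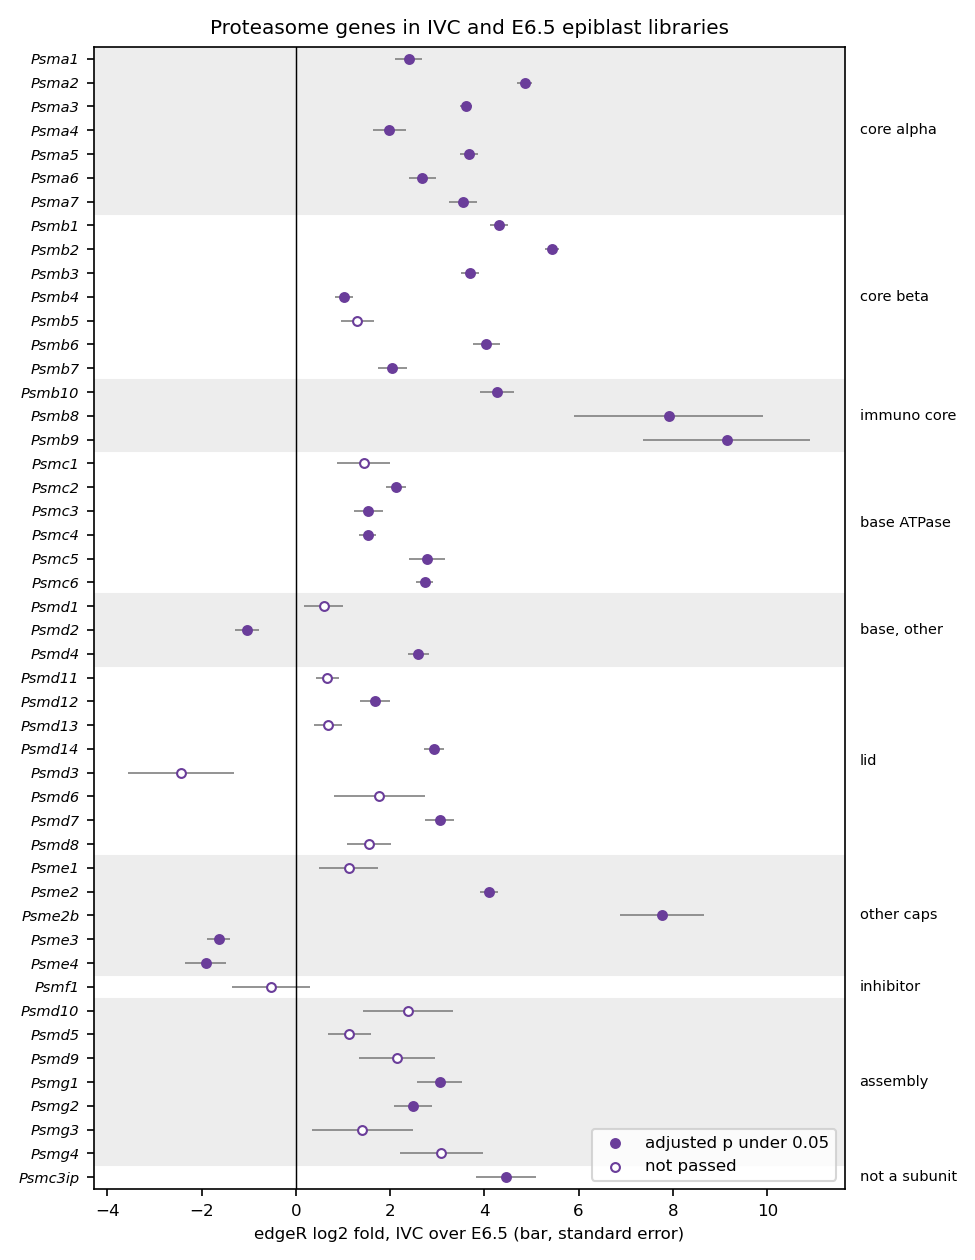
Log2 fold of IVC over E6.5 epiblast with its SE for each tested member, from edgeR's quasi-likelihood fit on 2 against 2 samples, grouped by role. Filled points have a Benjamini-Hochberg adjusted p under 0.05 over all genes. The alpha and constitutive beta subunits lie above 0, and the filled points below 0 are Psmd2, Psme3 and Psme4.

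The 7 alpha subunits had a median log2 fold of 3.55. Psma2 was at 1882 and 2225 CPM in IVC and at 84.0 and 87.5 CPM in E6.5 (4.85, SE 0.15, edgeR quasi-likelihood adjusted p = 0.0038). Psma3 was at 1590 and 1529 CPM against 154 and 155 CPM (3.61). The smallest alpha fold was that of Psma4, 212 and 307 CPM against 90.9 and 66.3 CPM (1.99), so each IVC sample was above each E6.5 sample even there. Together the alpha genes took 0.704 and 0.798% of counts in IVC and 0.0779 and 0.0815% in E6.5.

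Among beta subunits Psmb2 was at 1520 and 1610 CPM in IVC and 41.5 and 46.1 CPM in E6.5 (5.43, SE 0.14, edgeR quasi-likelihood adjusted p = 0.0038). Psmb1 was at 1479 and 1214 CPM against 83.3 and 80.3 CPM (4.31), and Psmb6 had a log2 fold of 4.04. Psmb5 was at 93.4 and 116 CPM against 50.7 and 51.6 CPM and did not pass (1.30, edgeR quasi-likelihood adjusted p = 0.058). The 3 cutting subunits thus had log2 folds of 4.04 (Psmb6), 2.04 (Psmb7) and 1.30 (Psmb5), whose differences were not tested. Of the immune subunits, Psmb10 was at 200 and 155 CPM against 10.8 and 11.6 CPM (4.26). Psmb8 had 19.6 and 10.8 CPM in IVC against 0 and 0.12 CPM, a ratio of 182 with a counting interval of 61.7 to 888. Psmb9 had a ratio of 557 (99.2 to 22059) for the same reason. Psma8 and Psmb11 had at most 2 counts in any sample and were not tested.

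In the base, 5 of 6 ATPases were higher, Psmc5 by 2.78 and Psmc6 by 2.73 most, and Psmc1 did not pass (1.44). Psmd4 was higher, at 408 and 405 CPM against 70.5 and 91.7 CPM, and Psmd2 lower, at 200 and 141 CPM in IVC against 394 and 454 CPM in E6.5 (-1.03, edgeR quasi-likelihood adjusted p = 0.048), while Psmd1 did not pass. In the lid 3 of 8 were higher: Psmd7 (3.06), Psmd14 (2.93) and Psmd12 (1.69). Psmd3 was at 6.17 and 55.9 CPM against 192 and 211 CPM, a large but uneven difference that did not pass (-2.43, SE 1.13). Psmd6 also differed more within IVC, at 62.6 and 406 CPM, than between the groups.

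Among the caps Psme2 was at 458 and 463 CPM in IVC against 31.7 and 33.5 CPM in E6.5 (4.09). Psme2b, whose sequence is nearly that of Psme2, was at 45.1 and 63.3 CPM against 0.34 and 0.25 CPM (7.76). Reads of the pair may have been split between them by the authors' counting, so the level of each is uncertain. Psme1, the partner of Psme2, was at 35.8 and 77.5 CPM against 28.6 and 34.3 CPM and did not pass (1.12). Psme4 was lower at 141 and 69.7 CPM against 513 and 447 CPM (-1.91, edgeR quasi-likelihood adjusted p = 0.041), and Psme3 at 73.9 and 75.2 CPM against 297 and 263 CPM (-1.64). Psmg1 (3.05) and Psmg2 (2.49) were the 2 chaperones of 7 that passed, both in the higher direction, and Psmc3ip was higher at 4.46.

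Partners of the proteasome outside the Psm name followed in part: Pomp, the chaperone that matures the barrel, was at 879 and 1199 CPM in IVC against 79.0 and 68.9 CPM in E6.5 (4.08). Sem1 (5.42) and the ubiquitin receptor Adrm1 (1.47) were higher too, 3 of 10 partners in all. Ubb (4.15), Rps27a (3.33) and Ube2d3 (1.94) were higher, and Uba1, the main ubiquitin-activating enzyme, was lower (-2.41). Of the shuttles 4 of 10 were lower and none higher, among them Vcp (-1.48) and Rad23b (-1.73).

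Other measures moved with this contrast. The IVC samples had 8380 and 8990 genes detected against 13101 and 13698. The summed epiblast markers were at 1081 to 1123 CPM in IVC and 4339 to 5150 CPM in E6.5, those of visceral endoderm at 420 to 499 and 90.6 to 112 CPM, and those of mesoderm at 37.6 to 62.5 and 206 to 238 CPM. The 3 blood markers were at 0 in all 4 samples. The part of these differences in the members' folds was not tested.

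Some members were near the floor in oocytes and embryos. Psma8, Psmb8, Psmb9, Psmb10, Psmb11, Psmd13 and Psme2b reached 10 CPM in no pool of either stage comparison. Psmb10, the immune counterpart of Psmb7, had 409 counts in the 8 WT 2-cell libraries, at 0, 10.3 and 25.0 CPM, and 23 in the 9 KO libraries, at 0, 0 and 2.35 CPM. Psmd13, a lid subunit, was at 7.16 CPM in the WT and 3.24 CPM in the KO 2-cell pool. Psme2b had 68 and 2 counts, Psmb8 25 and 78, Psmb9 51 and 44, Psma8, a testis form of Psma7, 63 and 101, and Psmb11, a thymus form, 27 and 23. With so few counts no direction is read for these last 5.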

How the data were processed

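Per the labels, polyA RNA was measured in single MII oocytes, single cells of 2-cell embryos and bulk epiblast. The authors deposited raw counts per gene symbol, with no normalization, as a total table, a maternal and a paternal table for oocytes and 2-cell libraries, and 1 table per epiblast group. Without stating roles, the submitters' processing notes name the build mm9, the counters featureCounts 2.0.1 and HTSeq 0.10.0, the aligner STAR 2.6.0a, and cutadapt 1.15, SAMtools 0.1.18 and Trim Galore 0.6.6; they also name methylation tools, which do not bear on these counts. Strand and treatment of reads shared by near-identical copies are not given in the sources used here, so counts of Psme2 and Psme2b, and of members with pseudogenes (Psma5, Psmb5, Psmb6 and Psmb7), are uncertain in that respect.

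From 24542 rows, 92 ERCC rows were left out of totals. In all 33 oocyte columns the maternal table equalled the total and the paternal table was 0, so oocytes were not split by allele; 6 of 799 member values above 0 in 2-cell libraries had more allele than total counts. Joining both epiblast tables by symbol left 24446 genes, once 4 rows with a repeated name were removed. Libraries of a group differed by a chi-square per gene of at least 13.09, so none was counted as a duplicate.

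Counts were summed by group, and pooled CPM ratios were given exact conditional Poisson intervals at 95%; a pool at 0 was set to 3 counts over the group. Calls needed 2-fold and 10 CPM in either pool, and allele shares 50 allele counts in each genotype. Spike-in and low-rRNA sets were defined by ERCC above 0.01% and Rn45s under 1% and do not stand for conditions. For epiblast counts the test was that of edgeR 4.0.16 (R 4.3.3; quasi-likelihood F test, TMM, filterByExpr, two-sided, Benjamini-Hochberg over all genes tested, adjusted p under 0.05). DESeq2 1.42.0 served as an alternative. Other steps used Python 3.11.15, pandas 2.3.3, numpy 2.4.6 and scipy 1.17.1, with figures drawn in matplotlib 3.10.9. The scripts were tested on simulated data.

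Replicate numbers do not pair the epiblast samples: nothing in the labels does, and the deviations of same-numbered samples correlated at 0.0008404. Members, lists and roles were chosen with earlier results of these data known. All members are counted in their role; per comparison those past the limits are named, and library values are given for up to 4 of the largest ratios in each direction and for members called in both genotypes, plus others singled out after their values were seen. Promoters came from RefSeq on GRCm38.p6.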

Additional observations from a re-analysis of the deposited data

Results flagged for a closer look

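In each spike-in group the share of counts taken by the members, and by each role, was checked for a library set apart from the rest of its group. Of 40 sums checked 5 were set apart. The 95% limit used marks about 1 in 20 groups by chance, and the sums are not independent, since the sum over the members holds every role. KO 2-cell replicate 4 was the highest library for 3 of them: 0.363% of counts for the members together (group median 0.245%, next library 0.276%), 0.07% for core alpha subunits (0.0347% and 0.0426%) and 0.0492% for non-ATPase base subunits (0.0212% and 0.0322%). It also held the highest level of Psma7 among KO 2-cell libraries, at 276 CPM. In KO oocytes replicate 17 gave 0.0594% of counts to the alternative caps (group median 0.0238%, next 0.0261%), with Psme4 at 508 CPM, the highest value of that gene among KO oocytes. WT oocyte replicate 8 gave 0.491% to the members together (group median 0.405%, next 0.417%).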

How the results depend on the processing

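Counts over single cells of unnamed animals limit every oocyte and 2-cell ratio, since the intervals hold counting error only. TMM scaling moved the members' medians to -0.58 (KO against WT 2-cell), -0.57 (KO step) and 0.12 (WT step). Without a filter on level the KO step had 16 members higher and a median of 0.31, the WT step a median of 1.37, the WT oocyte sets 9 lower, KO against WT oocytes 7 higher and 1 lower (low-rRNA) or 8 and 1 (spike-in), and the epiblast 1 lower. With all oocyte libraries the KO step had 3 higher, a median of -0.10 and Psmc2 at -0.0185, and KO against WT oocytes 0 higher. Without both 2-cell libraries that stood apart, chosen after seeing the data, the 2-cell median was -1.27. The cause of these shifts was not tested.

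Leaving out 1 library at a time gave, for KO against WT 2-cell, 2 to 7 higher, 17 to 24 lower and a median of -1.16 to -0.71; the 2 came without KO 2-cell replicate 4. The KO step had 6 to 7 higher, 10 to 13 lower and -0.45 to -0.34, and the WT step 18 to 21, 9 to 11 and 0.72 to 0.89. The WT oocyte sets had 6 to 8, 4 to 7 and -0.05 to 0.08. KO against WT oocytes had 0 to 1 higher, 0 lower and 0.0002 to 0.07 (low-rRNA), with Psmb1 lost without KO oocyte replicate 2 or WT oocyte replicate 1 or 3, and 3 to 4, 0 and 0.04 to 0.17 (spike-in). Median paternal shares were 31.6 to 36.8% in WT and 7.58 to 12.9% in KO, with 23 to 27 and 8 to 11 members at 25% or more. In epiblast 18 to 39 members were higher and 0 to 5 lower, with a median of 2.25 to 2.54. The 18 and the 0 came without either E6.5 sample, and the 5 without IVC replicate 2; the lone sample is then assumed to vary like the other group.

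With the replicate number as a block, 23 epiblast members were higher and 1 lower, and DESeq2 gave 30 and 2. No paired analysis was possible because oocyte and 2-cell libraries carry only cell numbers. The spike-in set alone was not run for 2-cell libraries, which are all in it.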
